A study of Mus musculus with 6 samples.

Results

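The nuclear-encoded subunits of respiratory complexes II to V were described in hearts of VAChT KD and WT mice. Members were the probe sets whose single annotated gene symbol was Sdha, Sdhb, Sdhc, Sdhd or Cyc1, or began with Uqcr, with Atp5, or with Cox and a digit from 4 to 8. The choice used names only and no measured value. It gave 67 probe sets of 47 genes, of 19938 genes named on the array, with 4 genes of complex II, 9 of complex III, 17 of complex IV and 17 of complex V. For the 12 genes with several probe sets, the one with the highest mean over all arrays stood for the gene. Another 3 probe sets carried Cox7c beside a second symbol and were left out, and subunits encoded by mitochondrial DNA bear other symbols.

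Hearts of 3-month-old male VAChT KD mice, which carry a knockdown of the vesicular acetylcholine transporter, were set against hearts of WT males of the same age. Each group comprised 3 Affymetrix Mouse Gene 1.0 ST arrays, and each array held pooled RNA from 2 preparations. The mice received no treatment, and the strain is labelled C57BL/6. According to the study's methods, the mutants were homozygous and on a mixed C57BL6/j background with limited backcrossing, and the tissue was ventricle, whereas the labels name heart. The knockdown is carried by the whole animal and is not restricted to the heart. Because whole tissue was measured, fewer cells of a type and less RNA per cell cannot be told apart.

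Complex II, succinate dehydrogenase, feeds electrons from the citric acid cycle into the ubiquinone pool, and complex III passes them from ubiquinol to cytochrome c. Complex IV, cytochrome c oxidase, hands them to oxygen, and complex V, the ATP synthase, uses the proton gradient that complexes III and IV help to build. The heart is densely packed with mitochondria and carries muscle-type isoforms of several complex IV subunits, among them Cox6a2, Cox7a1 and Cox8b, beside isoforms of wider use.

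Values are log2 signals, so that a difference of 1 is a doubling, and probe affinity makes the level of one gene not comparable with that of another. The genes of olfactory receptors, covered by 1035 probe sets, served as a measure of background, with a 95th percentile of 6.503. The targeted gene, Slc18a3, read 7.24, 6.77 and 7.58 on VAChT KD 1 to 3, against 7.31, 7.42 and 7.11 on WT 1 to 3, and did not separate the groups. Ogdhl, an oxoglutarate dehydrogenase-like gene that the study examined further, read 7.06, 10.17 and 7.09 in VAChT KD and 9.60, 7.21 and 10.33 in WT, so that both arrays numbered 2 stood with the other group. Whether the labels of these 2 arrays are exchanged was not tested, and every difference between VAChT KD and WT given here depends on the labels as they stand. VAChT KD 1 stood apart in another way. Its brightest probe set read 13.70 against 14.71 to 14.90 on the other 5 arrays, and 0 of its probe sets lay above 14, against 61 to 70. The results below are therefore also given without VAChT KD 1 or without both arrays numbered 2.

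No gene of complexes II to V differed between VAChT KD and WT hearts beyond the spread between arrays. In limma, 0 of the 47 passed an adjusted p of 0.05, as was the case for all but 1 of the 35556 probe sets (0.00281%), and the adjusted p of the 47 lay between 0.482 and 0.995. At an unadjusted p of 0.05, 0 were higher, against 1.71% of all genes, and 0 were lower, against 8.08% of all genes. With a 1.3-fold difference required as well, 0 passed, against 1.27% of all genes. With 3 pools a group, these p-values reflect the spread from pool to pool and not that between single mice.

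The differences were small in both directions. In VAChT KD relative to WT, 22 genes had a positive and 25 a negative log2 difference, with a median of -0.0029, beside -0.03 over all genes. The range ran from -0.25 for Cox6c, a small subunit of cytochrome c oxidase, to 0.21 for Uqcr10, a small subunit of complex III, and 35 of the 47 differences were smaller than their own standard error. The 95% interval of 33 genes lay wholly within 1.3-fold in either direction, while 14 genes had an interval that reached past it. The median standard error was 0.11. By complex, the median difference on the values as deposited was -0.09 for complex II, 0.03 for complex III, 0.05 for complex IV and -0.03 for complex V.

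**Figure D1:**
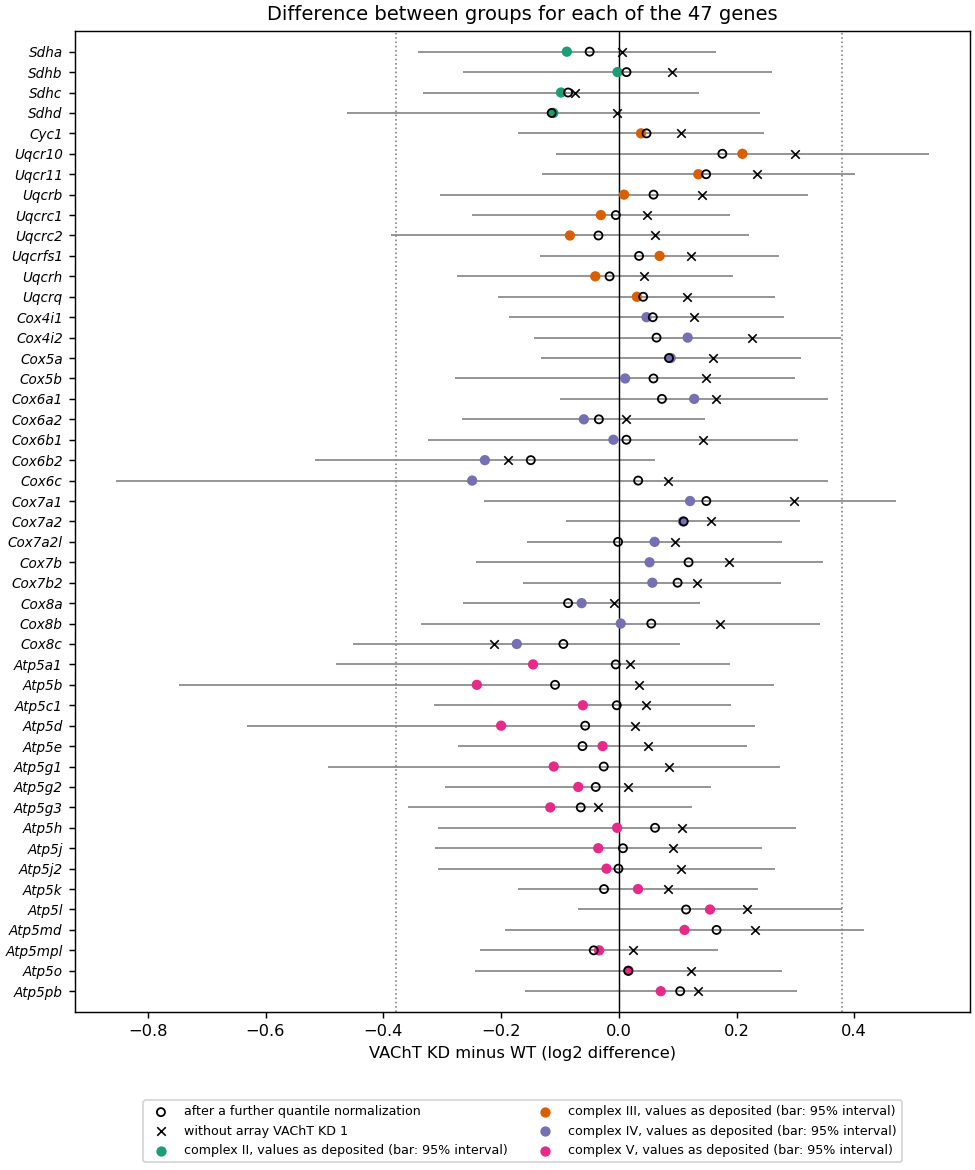
Log2 difference, VAChT KD minus WT (horizontal axis), for each of the 47 genes, with filled points for the values as deposited, bars for limma's 95% intervals, open circles for a further quantile normalization and crosses for the values without VAChT KD 1; dotted lines mark 1.3-fold. The filled points lie between -0.25 and 0.21 and every bar crosses 0, and most crosses lie to the right of the filled points.

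The members varied together from array to array, with 1 VAChT KD array below the rest. VAChT KD 1 was the lowest of the 6 arrays for 35 of the 47 genes (74.5%), against 20.8% of all genes. Expressed as the mean deviation from each gene's own average, the members lay at -0.21, 0.07 and 0.12 on VAChT KD 1, 2 and 3, against 0.04, 0.00 and -0.02 on WT 1, 2 and 3. VAChT KD 3 was the highest array for 22 genes, VAChT KD 2 for 13, WT 1 for 8 and WT 2 for 4. The VAChT KD group thus held both the lowest and the highest array, with the 3 WT arrays between them. Across the 6 arrays, each gene's Pearson correlation with the mean of the other members had a median of 0.85 and was positive for 46 of 47 genes. Without VAChT KD 1 that median was 0.59 and 44 remained positive. These correlations are given as a description, since all points share the same 6 arrays.

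**Figure D2:**
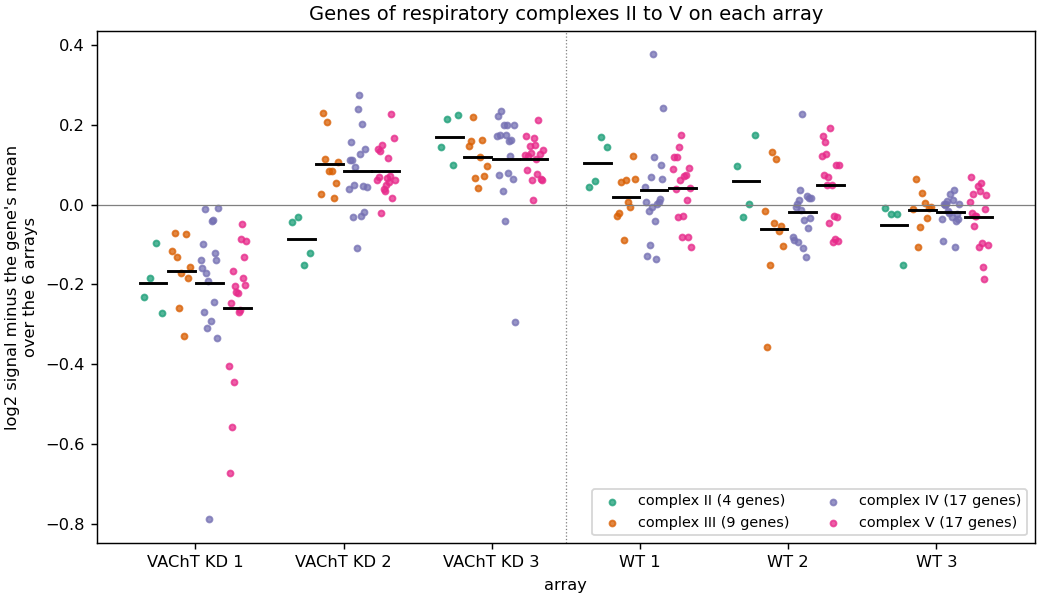
Log2 signal minus the gene's mean over the 6 arrays (vertical axis) for every gene, by array (horizontal axis) and complex, with a bar at the mean of each complex. All complexes lie below 0 on VAChT KD 1, with means between -0.26 and -0.17, and complex IV reaches furthest down through Cox6c.

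The deficit on VAChT KD 1 grew with signal above 11, in the members and in all other probe sets. All 47 genes lay below the mean of the other 5 arrays, by a median of -0.22. Members with a signal of 12 to 13 on the other arrays lay at a median of -0.21, those of 13 to 14 at -0.32 and the 3 above 14 at -0.81. All other probe sets lay at -0.17, -0.33 and -0.99 in the same ranges and at -0.04 under 8. The few members of lower signal did not follow one trend, with medians of -0.15 under 8, -0.12 from 8 to 10, -0.09 from 10 to 11 and -0.14 from 11 to 12. Of the 47 members, 40 fell between the 10th and the 90th percentile of other probe sets of the same signal, and the median distance from the centre of those probe sets was -0.01. The cardiomyocyte markers Myh6, Tnnt2, Tnni3, Actc1, Myl2 and Ryr2, of which 6 of 6 were lowest on VAChT KD 1, had mean levels of 13.20, 13.95 and 13.94 on VAChT KD 1 to 3 and of 13.87 to 13.89 on the WT arrays. Whether cell composition took part in the low values of that array was not tested.

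**Figure D3:**
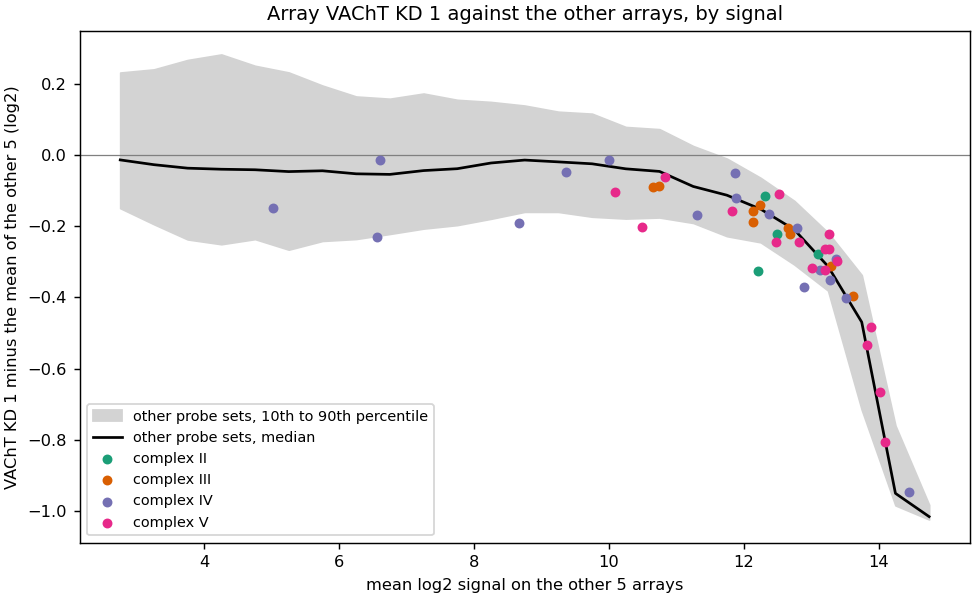
Log2 signal on VAChT KD 1 minus the mean of the other 5 arrays (vertical axis) against that mean (horizontal axis), with coloured points for the 47 genes and, for all other probe sets, the median as a line and the 10th to 90th percentile as a band. The band bends downward above a signal of 11, and 40 of the 47 points lie inside it.

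The values depended on how that array was treated. After a further quantile normalization the members lay at -0.01 on VAChT KD 1, which was then the lowest array for 8 of the 47, and 25 differences were positive, with a median of 0.01. The 95% interval was then within 1.3-fold for 44 of the 47 genes. Without VAChT KD 1, 41 of 47 differences were positive, with a median of 0.10, beside -0.01 over all genes. Cox7a1, the muscle isoform of subunit VIIa, then reached 0.30 (limma unadjusted p = 0.0146, adjusted p = 0.518) and Cox4i2, the isoform of subunit IV induced by low oxygen, reached 0.23 (unadjusted p = 0.0496, adjusted p = 0.520). The signals of VAChT KD 2 and 3 both exceeded all 3 WT signals for 19 of the 47 genes (12.7% of all genes). Without both arrays numbered 2, 17 of 47 differences were positive and the median was -0.04, equal to that of all genes to 2 decimals. None of the 47 passed an adjusted p of 0.05 in limma in any of these settings.

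The 4 genes of complex II had negative differences on the values as deposited, each within the error of the array spread. Without VAChT KD 1, the differences of Sdha, Sdhb, Sdhc and Sdhd were 0.0058, 0.09, -0.07 and -0.0035. Sdha, the flavoprotein that oxidises succinate, read 12.83, 13.01 and 13.20 on VAChT KD 1 to 3, against 13.10, 13.15 and 13.05 on WT 1 to 3. The VAChT KD arrays held both its lowest and its highest value, and the groups overlapped (log2 difference -0.09, standard error 0.11, limma adjusted p = 0.732). Sdhb, the iron-sulfur subunit, read 12.28, 12.43 and 12.68 in VAChT KD and 12.52, 12.43 and 12.44 in WT, again with the extremes on VAChT KD 1 and 3. The membrane anchors Sdhc and Sdhd, which bind ubiquinone, differed by -0.10 (standard error 0.10) and -0.11 (standard error 0.15). For Sdhd, the values 11.89, 12.04 and 12.38 in VAChT KD spanned those of WT, 12.30, 12.33 and 12.01. In complex II, 3 of the 4 genes were highest on VAChT KD 3.

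In complex III, 6 of 9 genes had a positive difference, and none was past an unadjusted p of 0.05. Uqcr10 read 10.66, 10.96 and 10.89 on VAChT KD 1 to 3, against 10.71, 10.37 and 10.79 on WT 1 to 3. Its WT 2 value stood lowest of all 6, VAChT KD 2 and 3 stood highest, and VAChT KD 1 lay among the WT values. The difference of 0.21 (standard error 0.14, limma adjusted p = 0.535) was 0.02 without both arrays numbered 2. Uqcr11, another small subunit, read 11.98, 12.22 and 12.33 in VAChT KD and 12.16, 11.96 and 11.999 in WT (difference 0.14, standard error 0.11). It too was higher on VAChT KD 2 and 3 than on any WT array, with VAChT KD 1 inside the WT range. At its second probe set the difference was 0.06, and VAChT KD 2 at 11.38 lay below WT 1 at 11.43.

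The catalytic and core subunits of complex III differed less. Cyc1, the cytochrome c1 that gives electrons to cytochrome c, read 12.10, 12.24 and 12.37 in VAChT KD, against a tight 12.19, 12.20 and 12.21 in WT (difference 0.04, standard error 0.09). Uqcrfs1, the Rieske iron-sulfur protein, differed by 0.07 (standard error 0.09). The core proteins Uqcrc1 and Uqcrc2, which belong to the family of mitochondrial processing peptidases, differed by -0.03 (standard error 0.09) and -0.08 (standard error 0.13). For Uqcrc2, only VAChT KD 1 at 13.22 stood away from the other arrays, which read 13.64 and 13.67 in VAChT KD and 13.56, 13.66 and 13.56 in WT. The small subunits Uqcrb, Uqcrh and Uqcrq had differences between -0.04 and 0.03.

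Complex IV held most of the genes with tissue-specific forms, and 11 of its 17 differences were positive. Cox6c had the widest spread. It read 13.501, 14.53 and 14.46 in VAChT KD and 14.41, 14.52 and 14.32 in WT, and only VAChT KD 1 stood low (difference -0.25, standard error 0.26, limma adjusted p = 0.682). Without that array the difference was 0.08, and after a further quantile normalization it was 0.03. Cox7a1 read 12.93, 13.49 and 13.42 in VAChT KD, against 13.18, 13.11 and 13.19 in WT. Its 3 WT values were close together, with VAChT KD 1 below and VAChT KD 2 and 3 above them (difference 0.12, standard error 0.15). Cox8b, the muscle isoform of subunit VIII, read 13.12, 13.59 and 13.65 in VAChT KD and 13.51, 13.42 and 13.42 in WT. As for Cox7a1, VAChT KD 1 lay below and VAChT KD 2 and 3 above all WT arrays, and the difference was 0.0033 (standard error 0.14).

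Cox7a1 and Cox8b are also abundant in brown fat, whose marker Ucp1 lay below the olfactory receptor level on all but 1 array. Ucp1 read 5.85, 5.81 and 5.79 in VAChT KD, against 7.41, 6.02 and 6.07 in WT, with WT 1 apart. Dio2 and Elovl3 also had means below that level. Cidea, a lipid droplet protein of brown fat, read 8.86, 8.92 and 8.97 in VAChT KD and 8.77, 8.70 and 8.73 in WT, higher without overlap (limma unadjusted p = 0.0438, adjusted p = 0.419). Ucp1 and Dio2 were lower without overlap, Dio2 by -0.33 (limma unadjusted p = 0.00671, adjusted p = 0.409). Of all genes, 5.2% were higher and 14.8% lower without overlap. The whole list of 5 had mean levels of 6.97 to 7.07 in VAChT KD and 7.15 to 7.44 in WT. Whether brown fat took part in the values of Cox7a1 and Cox8b was not tested.

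The isoforms of wider use had differences between -0.06 and 0.13, and that of Cox6a1 was the largest positive difference in complex IV. Cox6a1 read 9.99, 9.97 and 10.24 in VAChT KD, against 9.90, 9.91 and 10.003 in WT, where only VAChT KD 3 stood clear of the WT values (difference 0.13, standard error 0.10, limma adjusted p = 0.582). Cox7a2 differed by 0.11 (standard error 0.08), Cox4i1 by 0.05 (standard error 0.10) and Cox8a by -0.06 (standard error 0.09). Cox6a2, the muscle partner of Cox6a1, read 12.58, 12.80 and 12.79 in VAChT KD and 12.82, 12.77 and 12.76 in WT (difference -0.06, standard error 0.09). Here too, VAChT KD 1 was the array that stood low. Cox4i2 read 8.47, 8.74 and 8.85 in VAChT KD, against 8.64, 8.54 and 8.54 in WT, with a difference of 0.12 (standard error 0.11) and overlapping groups. Cox5a and Cox5b, which have no second form among the members, differed by 0.09 and 0.01. Cox7a2l, which shares its name with complex IV but is known for joining complexes III and IV into supercomplexes, differed by 0.06 (standard error 0.09).

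The testis isoforms of complex IV were close to background. Cox7b2 read 4.87, 5.04 and 5.16 in VAChT KD and 5.01, 4.94 and 4.95 in WT, and it was the only member of the 47 with a mean under the olfactory receptors' 95th percentile. Cox8c, at a mean of 6.60, differed by -0.17 (standard error 0.12). Cox6b2, at a mean of 6.53, read 6.34, 6.42 and 6.48 in VAChT KD, against 6.90, 6.51 and 6.51 in WT. It was the 1 member with lower and non-overlapping signals in VAChT KD, where 14.8% of all genes showed that pattern, and 0 members were higher without overlap, against 5.2% of all genes. Its difference of -0.23 (standard error 0.12, limma adjusted p = 0.482) was -0.10 without WT 1. On that array the other probe sets under a signal of 8 were also raised, by a median of 0.10 over the other 5 arrays. The testis markers Prm1, Prm2, Tnp1 and Odf1, of which 1 of 4 exceeded the olfactory receptor level, had mean levels of 6.00 to 6.04 in VAChT KD and 6.09 to 6.31 in WT, and whether these bear on Cox6b2 was not tested.

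In complex V, 12 of 17 differences were negative on the values as deposited, and the largest were those of Atp5b and Atp5d. Atp5b, the catalytic beta subunit, read 13.29, 14.11 and 14.14 on VAChT KD 1 to 3, against 14.09, 14.14 and 14.03 on WT 1 to 3. VAChT KD 1 lay far below the other 5 arrays, which lay between 14.03 and 14.14 (difference -0.24, standard error 0.22, limma adjusted p = 0.635). Without VAChT KD 1 the difference was 0.03. Atp5d, the delta subunit of the central stalk, was likewise lowest on VAChT KD 1, at 13.35, 14.04 and 14.03 in VAChT KD and 14.02, 14.06 and 13.93 in WT. The alpha subunit gene Atp5a1 (13.40, 13.87 and 13.93 in VAChT KD, 13.89, 13.93 and 13.81 in WT) and the gamma subunit gene Atp5c1 differed by -0.15 (standard error 0.14) and -0.06 (standard error 0.11). Of the catalytic head and the stalk that turns within it, Atp5a1, Atp5b, Atp5c1 and Atp5d were low on 1 array and close to level on the other 5. Without that array, VAChT KD 1, the differences of Atp5a1, Atp5c1 and Atp5d were also positive, at 0.02, 0.05 and 0.03.

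The rotor ring of the membrane part is built from one protein, subunit c, that is encoded by Atp5g1, Atp5g2 and Atp5g3. These differed by -0.11 (standard error 0.16), -0.07 (standard error 0.10) and -0.12 (standard error 0.10). Without VAChT KD 1 their differences were 0.08, 0.02 and -0.04. Atp5g1 was lowest on VAChT KD 1 at 13.29, against 13.89 and 13.87 on the other VAChT KD arrays and 13.88, 13.79 and 13.71 in WT.

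Atp5l, which encodes subunit g of the membrane part, was the complex V gene with the largest positive difference. It read 10.78, 10.90 and 11.04 in VAChT KD, against 10.84, 10.74 and 10.67 in WT. VAChT KD 2 and 3 stood above all WT arrays, and VAChT KD 1 fell within the WT range (difference 0.15, standard error 0.10, limma adjusted p = 0.521). All 6 of its probe sets had positive differences, between 0.15 and 0.22, and 1 of them had an unadjusted p of 0.0461. At 4 of the 6, all VAChT KD arrays lay above all WT arrays, a pattern shown by 5.2% of all genes. None of these 4 probe sets was the one that stood for the gene. These probe sets share a gene and the same 6 arrays, so that they are not separate measurements of the condition. Atp5pb, a subunit of the peripheral stalk, was measured by 2 probe sets that differed in sign (0.07 and -0.09). Among the other genes with several probe sets, those of Atp5h and Uqcrb also lay on both sides of 0. The complex V genes not named with their values here, Atp5e, Atp5j, Atp5j2, Atp5md, Atp5mpl and Atp5o, had differences between -0.03 and 0.11, the highest being that of Atp5md, a small membrane protein of the enzyme, whose 3 probe sets gave 0.10 to 0.11.

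The balance between isoforms was compared within each array, which removes a shift common to both genes but not the deficit of VAChT KD 1, since that varied with signal. On the values as deposited, the groups overlapped in all 9 pairs. The exact permutation test, two-sided, cannot give a p below 0.1 with 3 arrays in each group, and after Benjamini-Hochberg adjustment over the 9 pairs every p was 0.9 or 1. The muscle-type Cox6a2 minus Cox6a1 was 2.59, 2.83 and 2.55 in VAChT KD, against 2.92, 2.86 and 2.76 in WT. VAChT KD 1 and 3 were below all WT arrays and VAChT KD 2 was among them, with a difference of -0.19 (standard error 0.10, exact p = 0.2). Cox7a1 minus Cox7a2 was 1.11, 1.51 and 1.48 in VAChT KD and 1.45, 1.29 and 1.32 in WT (difference 0.01, standard error 0.14, exact p = 0.9). Cox8b minus Cox8a was 1.98, 2.33 and 2.31 in VAChT KD and 2.14, 2.12 and 2.16 in WT (difference 0.07, standard error 0.11, exact p = 0.5). In both of these pairs VAChT KD 1 lay below and VAChT KD 2 and 3 above all WT arrays.

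Cox4i2 minus Cox4i1 differed by 0.07 (standard error 0.03, exact p = 0.2), and Cox6b2 minus Cox6b1 by -0.22 (standard error 0.18, exact p = 0.3). The pairs Cox8c with Cox8a and Cox7b2 with Cox7b, each with a testis form near background, differed by -0.11 and 0.0047. Atp5g1 and Atp5g2, each minus Atp5g3, differed by 0.0060 and 0.05.

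After a further quantile normalization, the groups did not overlap in 3 of the 9 pairs, each with an exact p of 0.1, the smallest possible, and 0.3 after Benjamini-Hochberg adjustment. Cox8b minus Cox8a was then 2.227, 2.227 and 2.278 in VAChT KD, against 2.093, 2.075 and 2.140 in WT, a difference of 0.14 (standard error 0.03). It was higher on each VAChT KD array than on any WT array. Cox6a2 minus Cox6a1 was then 2.77, 2.77 and 2.57 in VAChT KD, against 2.82, 2.83 and 2.78 in WT (difference -0.11, standard error 0.07). Only VAChT KD 3 stood well below the WT arrays. Cox6b2 minus Cox6b1 was -6.35, -6.42 and -6.39 in VAChT KD, against -5.99, -6.34 and -6.34 in WT (difference -0.16, standard error 0.12). Only WT 1 stood well above the VAChT KD arrays. Without VAChT KD 1, Cox8b minus Cox8a differed by 0.18 (standard error 0.01) and Cox4i2 minus Cox4i1 by 0.10 (standard error 0.02), each with an exact p of 0.1, again the smallest possible. Without both arrays numbered 2, Cox8b minus Cox8a differed by -0.0044 (standard error 0.17).

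**Figure D4:**
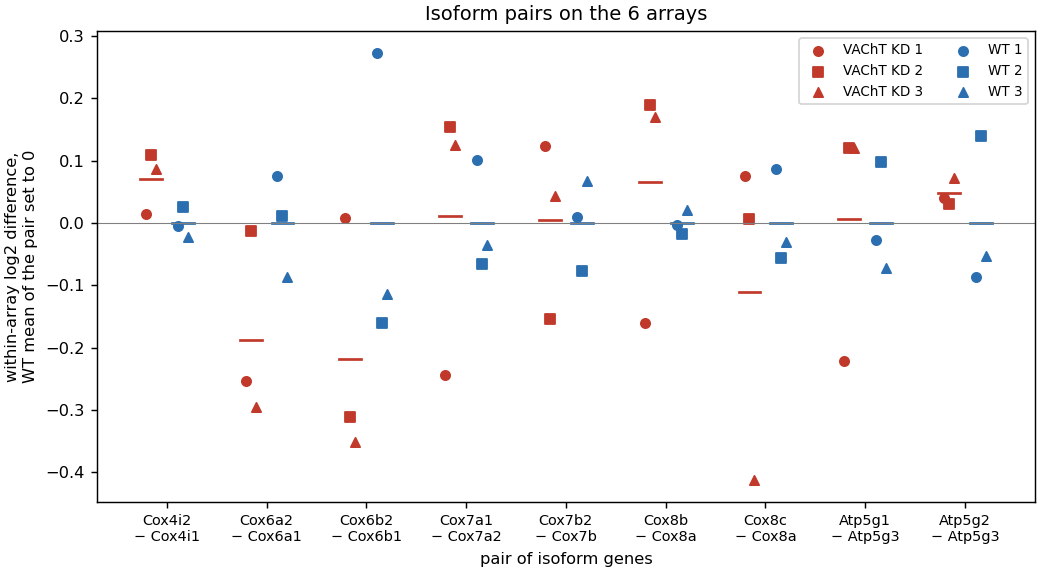
Within-array log2 difference between the genes of each pair, with the WT mean of the pair set to 0 (vertical axis), for the 9 pairs (horizontal axis); symbols are single arrays, VAChT KD in red and WT in blue, and bars are group means. On these values as deposited, the red and blue symbols overlap in all 9 pairs, and the lowest red symbol is VAChT KD 1 for Cox7a1 with Cox7a2 and for Cox8b with Cox8a.

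Genes that build or regulate the complexes had mostly positive differences, to be read beside the 1.71% of all genes that were higher and the 8.08% that were lower at an unadjusted p of 0.05. Of 4 assembly factors of complex II, 1 was higher at an unadjusted p of 0.05 and 0 lower, namely Sdhaf4, which aids the flavoprotein subunit, at 0.38 (standard error 0.14, limma adjusted p = 0.409). Of 16 measured assembly factors of complex IV, 1 was higher and 0 lower, the copper chaperone Cox17 at 0.23 (standard error 0.09, limma adjusted p = 0.409). Of 4 for complex V, 1 was higher and 0 lower, Atpaf1, a chaperone of the beta subunit, at 0.25 (standard error 0.10, limma adjusted p = 0.410). Of 6 for complex III, 0 passed in either direction. Of 10 regulators of mitochondrial genes, 1 was higher and 0 lower, Tfam, which packages and transcribes mitochondrial DNA, at 0.30 (standard error 0.10, limma adjusted p = 0.409). The median difference was 0.12 for the complex II factors, 0.11 for complex III, 0.07 for complex IV, 0.08 for complex V and 0.12 for the regulators, beside -0.03 over all genes. These lists had median signals between 8.75 and 10.3, and all other probe sets with signals from 8 to 10 also lay higher on VAChT KD 3, by a median of 0.10 over the other 5 arrays, and lower on WT 1, by -0.11. The part of that shift in the lists was not tested.

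Complex I, which precedes these complexes in the chain, resembled them on the array that stood low. VAChT KD 1 was lowest for 24 of its 36 genes (66.7%), the median difference was 0.02, and 1 gene, the small subunit Ndufa1 at 0.27 (standard error 0.10), was higher at an unadjusted p of 0.05 while 0 were lower, against the same 1.71% and 8.08% of all genes. The 77 mitochondrial ribosomal protein genes, at a median signal of 9.51 against 12.5 for the 47 members, were lowest on VAChT KD 1 in 14.3% of cases. Of these 77, 71 had positive differences, 6 were higher and 0 lower at an unadjusted p of 0.05, and 9 were higher without overlap (5.2% of all genes). Their mean deviation from each gene's average was 0.18 on VAChT KD 3 and -0.10 on WT 1. Their median signal lay between 8 and 10, where all other probe sets also had a higher median on VAChT KD 3 and a lower one on WT 1. The part of that shift was not tested. Cytochrome c itself, Cycs, differed by 0.03 (standard error 0.13), and its testis form Cyct by -0.06 (standard error 0.12) below the olfactory receptor level.

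Genes of these complexes are known to be served by a shared set of transcription factors, among them NRF-1, the ETS-family factor GABP and the estrogen-related receptors. The promoters of the members were searched for the corresponding letters as a description of the genes, and the differences above do not bear on these factors. RefSeq windows on GRCm38.p6, from 250 bases before to 50 bases after the start, were matched for 35 of the 47 genes. A 9-letter NRF-1 motif, GCGCATGCG on either strand, was present in 6 of the 35 (17.1%), beside 1.95% of 27025 genes with a window and 2.61% of the 17492 that code for protein. The ETS motif CCGGAAG was present in 13 (37.1%), beside 9.93% of all and 12.95% of protein-coding genes, and AAGGTCA, bound by estrogen-related receptors, in 5 (14.3%), beside 5.38% and 4.73%. YY1 letters AAGATGGCG were in 2 (5.7%), beside 1.64% and 2.14%. The TATA letters TATAAA were in 4 (11.4%), beside 15.67% and 14.8%. The SP1 letters GGGCGG were in 14 (40%), above the 38.2% of all genes and below the 49.23% of protein-coding genes. These searches covered both strands, and a gene counted once where matches overlapped on opposite strands. A match is a description of the letters and not of a bound site.

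The stretches below, 5′ to 3′ on the strand of the gene, show every member with the NRF-1 letters wholly before its start, with those letters in capitals in either orientation. They begin 42 bases before the start in Atp5g2, 50 in Atp5k, 241 in Atp5l and 162 in Cox6a1. Of these 4 genes, Atp5k encodes subunit e of the ATP synthase (log2 difference 0.03), and the others are described above.
Atp5g2, chr15:102671061-102671109, minus strand: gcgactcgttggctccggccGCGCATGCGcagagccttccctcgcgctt
Atp5k, chr5:108434421-108434469, minus strand: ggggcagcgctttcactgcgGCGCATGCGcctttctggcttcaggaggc
Atp5l, chr9:44920955-44920992, minus strand: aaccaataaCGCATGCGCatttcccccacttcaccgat
Cox6a1, chr5:115349092-115349140, minus strand: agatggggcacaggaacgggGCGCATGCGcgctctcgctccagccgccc

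The ETS letters are shown for the member of each complex in which they lie wholly before the start and nearest to it. They are in capitals and here all in the reverse orientation, CTTCCGG. They begin 46 bases before the start in Sdhd of complex II, 10 in Uqcrh of complex III, 16 in Cox6a1 of complex IV and 38 in Atp5h of complex V. Uqcrh, the hinge protein that holds cytochrome c1 to cytochrome c, differed by -0.04, and Atp5h, of the peripheral stalk, by -0.0029.
Sdhd, chr9:50603869-50603915, minus strand: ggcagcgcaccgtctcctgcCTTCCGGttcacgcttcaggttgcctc
Uqcrh, chr4:116075071-116075100, minus strand: actacgaggagtatgccgcaCTTCCGGcca
Cox6a1, chr5:115348959-115348994, minus strand: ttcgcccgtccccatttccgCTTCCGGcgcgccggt
Atp5h, chr11:115419931-115419977, minus strand: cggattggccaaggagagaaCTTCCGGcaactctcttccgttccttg
The 4 genes with NRF-1 letters shown had differences between -0.07 and 0.15, and the 4 with ETS letters shown between -0.11 and 0.13.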

How the data were processed

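RNA from 6 pools was hybridised to Affymetrix Mouse Gene 1.0 ST arrays, and the labelled genotype set the groups. The authors summarised probes with RMA in Partek, and the deposited values are log2 signals of 35556 probe sets. Their genome build is not given in the sources used here. Of these, 21789 probe sets carry 1 gene symbol in the platform annotation, 1621 several and 12146 are unlisted. Values were used as deposited. limma 3.58.1 in R 4.3.3 (lmFit, then eBayes) compared VAChT KD minus WT, and the p-values of all probe sets were adjusted by the Benjamini-Hochberg method. The procedure was tested on simulated data with independent noise for each probe set. That simulation held no shift of a whole array, so it does not cover the deficit of VAChT KD 1. A fold of 1.3 and an unadjusted p of 0.05 follow the study's methods. Isoform pairs were compared by exact permutation tests. Complex I genes, mitochondrial ribosomal proteins, assembly factors, regulators and marker genes served as further lists. The members, lists and tests were chosen with earlier results of these data known. Genes named were those of the isoform pairs, complex II, the catalytic and core subunits, and the 4 members with the smallest p in complexes III, IV and V; the remaining members, Ucp1 and the markers were named after their values were seen. A total of 17 other settings was tried, including normalization, filtering, the methods' ANOVA, array weights, a block and omission of arrays.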

Additional observations from a re-analysis of the deposited data

How the results depend on the processing

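In each of the 17 other settings, 0 of the members passed an adjusted p of 0.05 in limma or in the methods' ANOVA, and the lowest adjusted p of any member ran from 0.399 without WT 3 to 0.807 without WT 1. On the values as deposited, 0 members were higher at an unadjusted p of 0.05. With every probe set counted, 1 was (Atp5l), beside 1.71% of all genes. With 1 array left out, 0 to 2 were, and the 2 (Cox7a1 and Cox4i2) arose without VAChT KD 1, beside 1.64% of all genes. The share of all genes ran from 0.647% without VAChT KD 3 to 2.52% without WT 3. No member was lower at an unadjusted p of 0.05 in any setting. Of all genes, 3.31% (without WT 1) to 8.53% (without WT 3) were lower. The median difference of the members, -0.0029, ran from -0.07 without VAChT KD 3 to 0.10 without VAChT KD 1, and was 0.06 with each array centred on its median, which moved the median of all genes to 0.04; 34 of 47 differences were then positive. Of 562 values of single genes and pairs under other settings, 51 changed sign, each while within 1 standard error of 0 in at least 1 of the settings compared. With the replicate number as a block, 0 members were called and the lowest adjusted p was 0.494. The numbers were not taken as pairs, since the same-numbered arrays correlated at 0.06, -0.12 and 0.13 in their deviations from the group means. Precision is limited by having 3 arrays a group.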
